A study of Mus musculus with 24 samples.

Results

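Enteroendocrine cells are the hormone-secreting cells of the gut lining, and they were read here through 10 genes: Neurog3, Neurod1, Chga, Chgb, Gcg, Cck, Gip, Sct, Tac1 and Tph1. The genes were taken by name as regulators and hormone genes of this lineage, and each symbol was matched to its Ensembl identifier, giving 10 of the 54146 genes in the count tables. All 10 passed the filter on low counts in both experiments, and the lowest raw count of any of them in any library was 15, for Sct. The measurements are gene-level RNA-seq counts from 24 libraries of mouse small intestine organoids, which are cultured epithelial structures grown from crypts. There were 8 groups of 3 libraries in 2 experiments.

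The genotype experiment compared organoids of 4 genotypes: WT, Cdk8-/-, Cdk19-/-, and a line lacking both genes, called double knockout here. CDK8 and CDK19 are the paralogous kinases of the Mediator complex, which links enhancer-bound factors to RNA polymerase II. The sources differ on the mice of origin: the methods of the study name Cdk8 lox/lox mice with and without the Cre described next, its results name WT mice beside the floxed, Cre-carrying ones, and the labels call the controls wild type. The protocol gives 7 days of 4-hydroxytamoxifen (600 nM) for all of them. Loss of Cdk8 needed the tamoxifen-inducible Villin-CreERT2, whose Villin promoter drives Cre in the intestinal epithelium. Cre and loss of Cdk8 therefore cannot be told apart in a comparison with organoids that lack it. The sources used here do not say whether the WT and Cdk19-/- organoids carried it. Cdk19 was disrupted with a lentiviral CRISPR guide to exon 1, followed by clonal expansion of picked organoids. The inhibitor experiment compared organoids given 10 µM Senexin B, a small-molecule inhibitor of both kinases, with organoids given the solvent DMSO, for 16 h or 24 h. The labels do not give the genotype of these organoids, and according to the text of the study they were WT. The libraries of each group are labelled as biological triplicates.

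Counts on genes ran from 14636861 to 15473180 per library in the genotype experiment and from 27075937 to 28405118 in the inhibitor experiment. The labels give one protocol for all libraries, with oligo(dT) selection and the tamoxifen treatment, while the inhibitor libraries are also labelled as rRNA-depleted total RNA. Whether the inhibitor organoids received tamoxifen is thus unclear, and the experiments were normalised separately and no level was compared between them. A normalised count below is a count scaled to the mean effective library size of its own experiment. The genotype libraries carry 4T1, the name of a mammary tumour line, in their cell type field. The mammary markers Krt5, Krt14, Elf5, Csn2 and Csn3 summed to 0 to 4.02 normalised counts in WT and 0 to 1.01 in Cdk19-/-. In Cdk8-/- they summed to 7.14 to 28.8 and in double knockout libraries to 5.10 to 27.2. Only 1 of them was tested, and it was called as higher in the double knockout against WT (log2 3.76). The milk protein gene Csn2 was at 0 in each library. The intestinal markers Vil1, Cdx1, Cdx2 and Epcam summed to between 40477 and 46782. Among the 5 pancreatic islet genes Ins1, Ins2, Iapp, Pdx1 and Ppy, the insulin genes Ins1 and Ins2 were at 0 in all 24 libraries. The 5 together summed to 554 to 981 normalised counts in WT and 1511 to 1665 in DMSO at 16 h. Pdx1, a transcription factor of proximal gut as well as pancreas, was among the detected ones and is given at the end.

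The targeted genes gave a mixed picture. Cdk19 stood at 711, 749 and 726 normalised counts in WT replicates 1 to 3. The libraries labelled Cdk19-/- held 729, 420.1 and 422, and those labelled double knockout held 403, 355 and 773. The library labelled Cdk19-/- replicate 1 and the library labelled double knockout replicate 3 thus stood at the WT level of Cdk19. According to the study, the deletion was checked by sequencing, and loss of the protein and of the mRNA by Western blotting and qPCR. Those checks are not given for single libraries. A count over the whole gene does not show whether the edit was present, and this was not tested. The main counts of calls and the correlations are also given without these 2 libraries, as an alternative to the fits with all libraries. Cdk8 averaged 605 ± 61.4 normalised counts in WT and 725 ± 117 in Cdk8-/- (SD, n = 3). Only exon 2 of Cdk8 was floxed, and a count over the whole gene does not show its loss.

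Enteroendocrine cells arise from secretory progenitors of the crypt when Neurog3, a basic helix-loop-helix transcription factor, is switched on for a short time. Neurod1, a factor of the same class, and others then carry the cell towards a mature state in which chromogranins pack hormones into dense-core granules. Each mature subtype makes its own set of products: Gcg gives glucagon-like peptides, Cck cholecystokinin, Gip glucose-dependent insulinotropic polypeptide, Sct secretin and Tac1 substance P, and Tph1 catalyses the rate-limiting step of serotonin synthesis in the gut.

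Senexin B moved these genes in both directions. The mature products Gcg, Tph1, Chga and Cck rose and the early regulator Neurog3 fell at both 16 h and 24 h, and Gip and Tac1 were also higher at 24 h. At 16 h only the calls of Gcg and Tph1 held in every fit without 1 library. For orientation, the 150 bases before the RefSeq transcription start are shown for Gcg, Cck, Chga, Tph1 and Neurog3 (assembly GRCm38.p6, written 5′ to 3′ on the strand of the gene). All 10 genes matched the RefSeq table. The windows are chr2:62483654-62483803 (minus strand) for Gcg, chr9:121495695-121495844 (minus) for Cck, chr12:102554791-102554940 (plus) for Chga, chr7:46672538-46672687 (minus, the first of 2 listed starts) for Tph1 and chr10:62132940-62133089 (plus) for Neurog3. None of the 5 windows overlaps an annotated exon. Capitals mark any of 3 motifs on either strand: CAGATG, an E-box of the kind bound by neurogenic helix-loop-helix factors, TGACG, the core of the cAMP response element, and TATAAA, the TATA box.
Gcg: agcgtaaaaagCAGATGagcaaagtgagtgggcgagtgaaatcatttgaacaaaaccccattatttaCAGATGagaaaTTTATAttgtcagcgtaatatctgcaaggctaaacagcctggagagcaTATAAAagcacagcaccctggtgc
Cck: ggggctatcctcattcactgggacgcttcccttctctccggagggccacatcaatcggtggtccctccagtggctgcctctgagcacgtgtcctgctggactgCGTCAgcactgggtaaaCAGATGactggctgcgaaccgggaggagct
Chga: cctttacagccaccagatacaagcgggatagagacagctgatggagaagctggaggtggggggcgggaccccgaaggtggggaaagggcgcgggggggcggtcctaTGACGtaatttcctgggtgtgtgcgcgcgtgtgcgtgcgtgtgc
Tph1: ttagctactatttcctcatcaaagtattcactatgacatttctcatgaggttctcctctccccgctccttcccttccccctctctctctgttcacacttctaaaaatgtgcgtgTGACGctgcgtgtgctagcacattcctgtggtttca
Neurog3: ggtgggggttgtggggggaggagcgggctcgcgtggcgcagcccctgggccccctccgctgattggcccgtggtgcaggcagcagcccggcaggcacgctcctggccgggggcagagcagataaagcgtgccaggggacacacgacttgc

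In the longer window of 250 bases, CAGATG was found before 4 of the 10 genes (Gcg, Cck, Sct and Tac1), against 14.4% of 32851 such windows of all genes. In Gcg it starts 139 and 83 bases before the transcription start, and in Cck 30 bases before it. The letters TGACG were found before 5 (Chga, Chgb, Cck, Tac1 and Tph1), against 17.8% of windows, and TATAAA before 2 (Gcg and Sct), against 12.4%. The full cAMP response element TGACGTCA, which contains TGACG, was found before Chgb alone, against 1.55% of windows. These are matches of letters, and no measure of binding was made.

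The level of the genes was set by few of them. Together the 10 genes took 0.0930 to 0.255% of the gene counts in the genotype libraries and 0.0272 to 0.0491% in the inhibitor libraries. Chgb, a chromogranin of the granule core, was the most abundant in every library. It held 47.3 to 71.0% of the counts of the 10 genes in the genotype libraries and 53.0 to 64.8% in the inhibitor libraries.

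Per kilobase of exon, the mean normalised count in DMSO at 16 h was 1711 for Chgb, 599 for Gip, 548 for Neurog3, 315 for Chga, 168 for Cck, 92.6 for Tac1, 62.7 for Sct, 53.8 for Tph1, 18.6 for Neurod1 and 15.1 for Gcg. Neighbours in this order overlapped between libraries for Gip and Neurog3, for Sct and Tph1 and for Neurod1 and Gcg, and the others did not. After 24 h of Senexin B the order per kilobase was Chgb (2638), Gip (971), Chga (660), Neurog3 (473), Cck (320), Gcg (180.0), Tph1 (132), Tac1 (110), Sct (57.4) and Neurod1 (35.0). Chga stood above Neurog3 and Gcg above Tph1, Tac1, Sct and Neurod1, and only Tph1 and Tac1 overlapped. In WT organoids of the genotype experiment the levels per kilobase were 5452 for Chgb, 1715 for Gip, 1019 for Chga, 941 for Cck, 741 for Neurog3, 482 for Gcg, 288 for Tac1, 136 for Tph1, 131 for Neurod1 and 83.9 for Sct. There only Chgb stood clear of Gip and Tac1 clear of Tph1, and the other neighbours overlapped.

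After 16 h of Senexin B, edgeR's quasi-likelihood test with Benjamini-Hochberg adjustment over 15467 genes called 5 of the 10 genes at an adjusted p under 0.05. Over all genes tested it called 7.75%. Higher were 4 (Gcg, Tph1, Chga and Cck), against 4.36% of all genes, and lower was 1 (Neurog3), against 3.39%. The median log2 fold change of the 10 genes was 0.41, against -0.01 for all genes tested. After 24 h the same 5 genes passed together with Gip and Tac1, making 7 of 10 against 27.5% of all genes. Of these 6 were higher, against 14.8%, and 1 was lower, against 12.7%. The median was then 0.53, against 0.00 for all genes. In bulk RNA, a change in the number of enteroendocrine cells and a change in the RNA of each cell cannot be told apart.

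**Figure D1:**
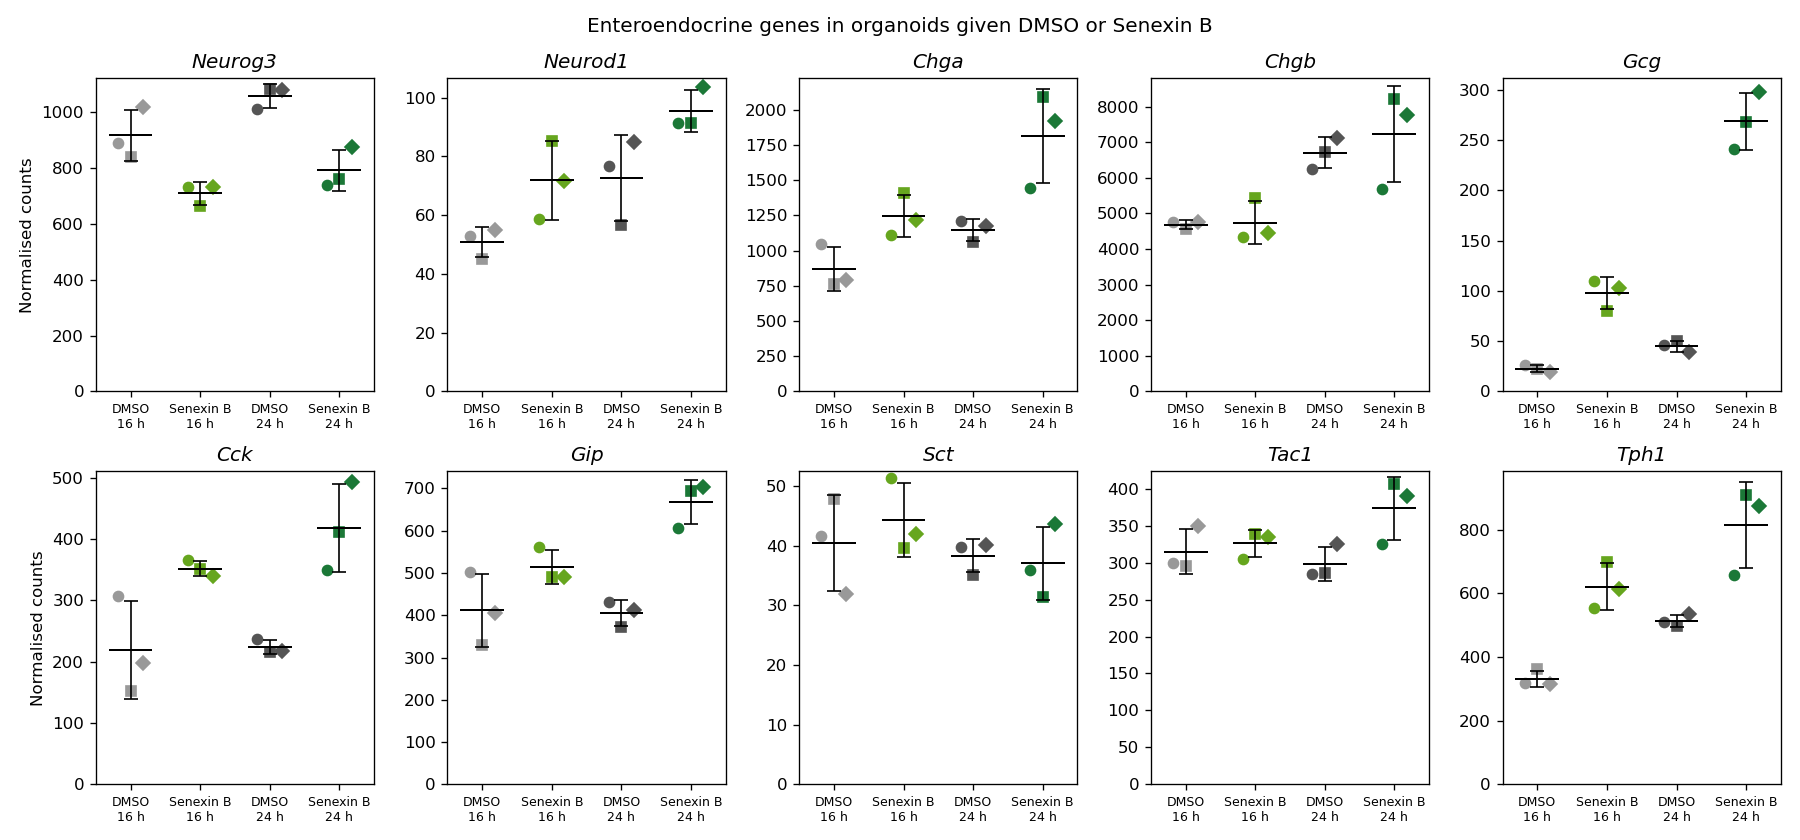
Normalised counts (linear axis from 0) of the 10 genes in the 12 inhibitor libraries, 1 panel per gene. Points are replicates 1 to 3 (circle, square and diamond), lines are group means and bars are SD. Gcg is at or below 49.7 in all DMSO libraries and at or above 80.2 in all Senexin B libraries, while Sct overlaps between the groups at both times.

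Neurog3 (chr10:62133090-62134763, a gene of 1 exon) counted 890.3, 840.5 and 1019 in DMSO at 16 h and 731, 662 and 733 with Senexin B. At 24 h it counted 1009, 1083 and 1079 in DMSO and 740.0, 759.8 and 875 with Senexin B. Every Senexin B library lay below every DMSO library of the same time. The log2 fold change was -0.37 at 16 h (SE 0.0889, edgeR adjusted p = 0.0197) and -0.42 at 24 h (SE 0.0881, edgeR adjusted p = 0.00357). Neurog3 shares 273 exonic bases with Fam241b on the other strand, but the inhibitor libraries were stranded, with 94.4 to 97.4% of the reads on Neurog3 in the sense used.

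Neurod1, which acts after Neurog3, was among the least abundant of the 10 genes here. Its counts were 52.8, 44.9 and 54.8 in DMSO and 58.6, 85.3 and 71.6 with Senexin B at 16 h, and 76.6, 56.5 and 84.8 against 91.3, 91.3 and 104 at 24 h. The groups did not overlap at either time. The log2 fold changes of 0.50 (SE 0.191, edgeR adjusted p = 0.133) and 0.39 (SE 0.177, edgeR adjusted p = 0.116) did not pass the threshold. Neurod1 shares 201 exonic bases with Cerkl on the same strand and 154 with Gm26755 on the other. What this does to its count was not tested.

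The granins differed from each other. Chga (chr12:102554969-102565028), which encodes chromogranin A, counted 1049, 761 and 794 in DMSO and 1110.3, 1409 and 1217 with Senexin B at 16 h. At 24 h it counted 1211, 1062 and 1176 in DMSO and 1445, 2089.8 and 1918 with Senexin B. No Senexin B library fell within the range of the DMSO libraries of its time, although DMSO replicate 1 came close at 16 h. The log2 fold change was 0.52 at 16 h (SE 0.142, edgeR adjusted p = 0.0382) and 0.66 at 24 h (SE 0.140, edgeR adjusted p = 0.00358). Chgb (chr2:132781278-132795079) counted 4749, 4549.8 and 4761 in DMSO and 4345, 5429.8 and 4455 with Senexin B at 16 h, and 6262, 6734 and 7119.8 against 5699, 8219 and 7768 at 24 h. Its groups overlapped at both times, and its log2 fold changes were 0.02 and 0.11.

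Gcg (chr2:62474530-62483650) had the largest fold change of the 10 genes at both times. It counted 26.4, 22.5 and 18.9 in DMSO and 110.0, 80.2 and 103 with Senexin B at 16 h. At 24 h it counted 46.5, 49.7 and 39.1 in DMSO and 241, 268 and 298 with Senexin B. The groups lay far apart at both times and the replicates within them close together. The level was 4.31-fold higher at 16 h (log2 2.11, SE 0.192, 95% interval 1.70 to 2.52, edgeR adjusted p = 2.35e-05) and 5.95-fold higher at 24 h (log2 2.57, SE 0.161, edgeR adjusted p = 6.66e-07).

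Cck (chr9:121489824-121495694) counted 307, 152 and 198 in DMSO and 365, 351 and 339 with Senexin B at 16 h, and 237, 216 and 218 against 349, 411 and 492 at 24 h. Its groups did not overlap, and DMSO replicate 1 stood apart from the other DMSO libraries at 16 h. The log2 fold change was 0.68 at 16 h (SE 0.192, edgeR adjusted p = 0.0425) and 0.90 at 24 h (SE 0.190, edgeR adjusted p = 0.00356). Gip (chr11:96024545-96030831) counted 501, 329 and 405 in DMSO and 560.3, 489 and 491 with Senexin B at 16 h, and 432, 371 and 412 against 607, 693 and 703 at 24 h. The groups overlapped at 16 h, through DMSO replicate 1, and not at 24 h. Its log2 fold change was 0.32 at 16 h (SE 0.129, edgeR adjusted p = 0.156) and 0.72 at 24 h (SE 0.128, edgeR adjusted p = 0.0012).

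Tac1 (chr6:7554879-7565834) counted 299.8, 295 and 349.6 in DMSO and 304, 339 and 334 with Senexin B at 16 h, and 285, 286 and 325 against 325, 406 and 389.9 at 24 h. Its ranges overlapped at 16 h and met at 24 h. The log2 fold change was 0.05 at 16 h and 0.32 at 24 h (SE 0.108, edgeR adjusted p = 0.0388). Sct (chr7:141278330-141279133) counted 41.7, 47.8 and 31.9 in DMSO and 51.4, 39.6 and 41.9 with Senexin B at 16 h, and 39.7, 35.1 and 40.0 against 35.9, 31.4 and 43.7 at 24 h. The groups overlapped at both times, with log2 fold changes of 0.13 and -0.05.

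Tph1 (chr7:46644641-46672537), the enzyme of the serotonin-making enterochromaffin subtype, counted 319, 361 and 316 in DMSO and 553, 699.5 and 613 with Senexin B at 16 h. At 24 h it counted 509, 498 and 536 in DMSO and 659, 911 and 875 with Senexin B. The groups did not overlap, and the fold was 1.87 at 16 h (log2 0.91, SE 0.123, edgeR adjusted p = 0.000467) and 1.59 at 24 h (log2 0.66, SE 0.119, edgeR adjusted p = 0.00123).

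**Figure D2:**
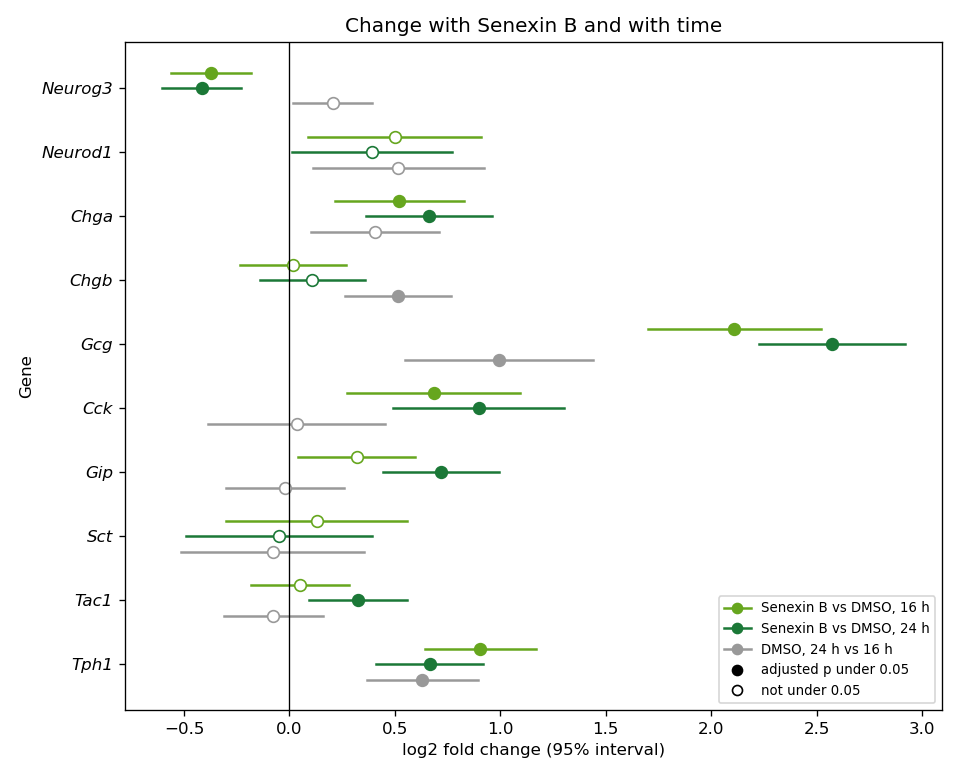
Log2 fold change of each of the 10 genes (horizontal axis) for Senexin B against DMSO at 16 h and at 24 h and for DMSO at 24 h against 16 h. Bars are 95% intervals, and filled points have an edgeR adjusted p under 0.05. Gcg lies at 2.11 and 2.57 under Senexin B, and Neurog3 at -0.37 and -0.42 is the filled point below 0 at each time.

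Gcg and Tph1 passed the test in each of 6 fits that left out 1 library at 16 h, in which 4.18 to 11.6% of all genes were called. The other calls at that time were lost in 3 (Neurog3), 4 (Chga) or 5 (Cck) of the 6 fits, while the direction stayed the same in each. The log2 fold change ran from -0.43 to -0.29 for Neurog3, from 0.43 to 0.68 for Chga and from 0.48 to 1.01 for Cck. Neurog3 lost its call without DMSO replicate 3 (edgeR adjusted p = 0.0774), Senexin B replicate 2 (0.0993) or Senexin B replicate 3 (0.0501). Chga lost it without DMSO replicate 2 (0.141), DMSO replicate 3 (0.118), Senexin B replicate 2 (0.143) or Senexin B replicate 3 (0.0889). Cck passed only without DMSO replicate 1 (0.00083) and had adjusted p-values of 0.0952 to 0.140 without any of the other 5 libraries. Gip, not called at 16 h with all libraries, passed without DMSO replicate 1 (log2 0.48, edgeR adjusted p = 0.0151). At 24 h the calls of Neurog3, Chga, Gcg, Cck, Gip and Tph1 held in 6 of 6 such fits, with 16.9 to 24.2% of all genes called. Tac1 lost its call without DMSO replicate 1 (0.116), DMSO replicate 2 (0.116), Senexin B replicate 2 (0.159) or Senexin B replicate 3 (0.122). When only the groups compared were fitted, edgeR called 2 of the 10 genes at 16 h (Gcg and Tph1), against 4.86% of all genes, and 6 at 24 h, without Tac1, against 30.7%. With the replicate number as a block, the same 5 genes were called at 16 h and the same 7 at 24 h, when all genes were called at 14.8% and 36.9%.

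Whether the effect of Senexin B differed between the times was tested as an interaction. No gene passed (0 of 15467 genes, 0%), and so 0 of the 10 genes were called by edgeR. At an unadjusted p under 0.05 there was 1 of the 10 genes, against 1995 of the 15467 genes. This was Gip, with a difference of 0.40 on the log2 scale (edgeR adjusted p = 0.377). DESeq2 called 66 genes (0.487%) and 0 of the 10. The difference was 0.46 for Gcg (SE 0.262, edgeR adjusted p = 0.485), 0.14 for Chga (SE 0.199, edgeR adjusted p = 0.820) and -0.05 for Neurog3 (SE 0.125, edgeR adjusted p = 0.919).

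The DMSO groups also differed between the times. Between 16 h and 24 h in DMSO, edgeR called 3 of the 10 genes, all higher, when 11.1% of all genes were called, 4.52% as higher and 6.59% as lower. Gcg rose by a log2 fold change of 0.99 (SE 0.209, edgeR adjusted p = 0.0109), Tph1 by 0.63 (SE 0.123, edgeR adjusted p = 0.00776) and Chgb by 0.52 (SE 0.117, edgeR adjusted p = 0.0151). Gcg lost its call without DMSO 16 h replicate 3 (0.0614), and Chgb without that library (0.0571) or DMSO 24 h replicate 3 (0.0517). Fitting these 2 groups alone also left 2 calls, Chgb and Tph1, when 2.57% of all genes were called. Chga differed by 0.41 (SE 0.142, edgeR adjusted p = 0.0787) and Neurog3 by 0.21 (SE 0.0876, edgeR adjusted p = 0.140). This comparison shares its control libraries with the Senexin B comparison at 16 h, so the values are given side by side and no relation between them was tested.

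Markers of other epithelial cells moved in the same libraries. Among 6 Paneth cell genes 2 (33.3%) were lower with Senexin B at 16 h and 5 (83.3%) at 24 h, when 3.39% and 12.7% of all genes were. Without 1 library the count at 16 h ran from 0 (without Senexin B replicate 3) to 3 (without DMSO replicate 1), and was 1 without DMSO replicate 2 or 3 or Senexin B replicate 1. At 24 h it was 5 each time. Their summed normalised count was 55968 to 80462 in DMSO and 42643 to 55391 with Senexin B at 16 h, and 79257 to 84891 against 36070 to 49076 at 24 h. Of 7 goblet cell genes, which mark mucus secretion, 4 were higher at 16 h, against 4.36% of all genes, and 5 were higher and 1 lower at 24 h, against 14.8% and 12.7%. With 1 library left out, 2 (without Senexin B replicate 2) to 4 were higher at 16 h, and 4 to 5 were higher and 1 lower at 24 h. Their sum was 71102 to 92434 in DMSO against 74041 to 82985 at 16 h, and 89558 to 103625 against 78767 to 87941 at 24 h. Tuft cell genes passed in 0 of 5 tested at 16 h and in 3 of 5, all higher, at 24 h (1 without DMSO replicate 2 or Senexin B replicate 1, and otherwise 2 or 3 when 1 library was left out), where their sum went from 729–874 in DMSO to 1031–1202. Of 6 enterocyte genes 1 was lower at 16 h, and 2 were higher and 1 lower at 24 h. With 1 library left out, 0 to 1 were higher and 0 to 1 lower at 16 h, and 0 to 3 higher and 1 to 2 lower at 24 h. Of 4 stem cell genes 1 was lower at each time, and 0 to 1 at 16 h with 1 library left out. The part of these cell types in the results above was not tested.

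A wider list of 90 genes, which holds the 10, showed both directions. Apart from 8 Notch and secretory specification genes it is made of enteroendocrine genes. Spdef, among these 8, is also in the goblet list. Of these 8, 2 were higher and 1 lower at 16 h (0 to 3 and 0 to 1 with 1 library left out). At 24 h 3 of them were higher and 1 lower. At 16 h, 18 of 72 tested members (25.0%) were higher and 4 (5.56%) lower with Senexin B, against 4.36% and 3.39% of all genes. The median log2 fold change was 0.24, against -0.01 for all genes. Leaving out 1 library gave 6 (without Senexin B replicate 2) to 17 higher and 1 to 3 lower, with 9 higher without DMSO replicate 3 or Senexin B replicate 1 and 10 without Senexin B replicate 3. At 24 h, 21 (29.2%) were higher and 6 (8.33%) lower, against 14.8% and 12.7%, with a median of 0.15 against 0.00. The counts were then 17 to 21 higher and 4 to 6 lower with 1 library left out. Without the 10 genes the counts were 14 higher and 3 lower of 62 at 16 h, and 15 higher and 5 lower at 24 h.

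By role, 5 of 20 regulators were higher and 1 lower at 16 h, a share called of 30.0% against 7.75% of all genes. Without Senexin B replicate 2 none of these 6 regulators was called by edgeR, and without any 1 of the other libraries 2 to 5 were higher and 0 to 1 lower. At 24 h 4 were higher and 1 lower, a share of 25.0%, near the 27.5% of all genes, and 2 to 4 were higher and 1 lower with 1 library left out. Of all genes, 4.36% were higher and 3.39% lower at 16 h, and 14.8% and 12.7% at 24 h. Of 10 peptide hormones tested, 4 were higher and 1 lower at 16 h and 6 were higher and 2 lower at 24 h. At 16 h Gcg alone of these was called without DMSO replicate 2 or 3 or Senexin B replicate 1, 2 were higher without Senexin B replicate 2 or 3, and 5 were higher and 1 lower without DMSO replicate 1. At 24 h 4 to 6 were higher and 1 to 2 lower with 1 library left out. For a difference between the times edgeR called no peptide hormone, with 1 (Gip) at an unadjusted p under 0.05, against 1995 of 15467 genes. Of 7 tested granins and prohormone processing genes 3 were higher at each time and none lower by edgeR, against the same shares of all genes. At 16 h this count fell to 1 without DMSO replicate 2 or 3 or Senexin B replicate 2 or 3, and at 24 h it was 3 in each of 6 fits. Of 9 nutrient and irritant sensor genes tested, 1 was higher at 16 h and 3 at 24 h, and none was lower. With 1 library left out 1 to 2 of them were higher at 16 h and 2 to 3 at 24 h. Regulated secretion genes passed in 1 of 13 at 16 h, as higher, and in 1 of 13 at 24 h, as lower, both at or below the shares of all genes called, and the call at 16 h was lost in each of 6 fits without 1 library.

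The serotonin genes were mixed: of 5 tested, 2 were higher and 1 lower with Senexin B at each time. All genes were called at 7.75% at 16 h and 27.5% at 24 h. Beside Tph1, Maoa, which degrades serotonin, rose from 5435 ± 176 to 7224 ± 657 normalised counts at 16 h (SD, n = 3; log2 0.41, edgeR adjusted p = 0.00327) and from 4894 ± 159 to 8237 ± 512 at 24 h (log2 0.75, edgeR adjusted p = 1.66e-05). Slc6a4, the serotonin uptake transporter, fell at 16 h (log2 -0.34, edgeR adjusted p = 0.00697). Slc18a1, which loads monoamines into granules, fell at 24 h from 706 ± 14.7 to 445 ± 37.2 (log2 -0.67, edgeR adjusted p = 0.000257).

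Further members led by adjusted p. At 16 h Pcsk1, the convertase that cuts prohormones, rose from 32.8 ± 2.21 to 66.7 ± 16.4 normalised counts (log2 1.02, edgeR adjusted p = 0.00641), and the fatty acid receptor gene Ffar1 rose from 4.97 ± 0.896 to 15.7 ± 2.04 (log2 1.63, edgeR adjusted p = 0.00452). At 24 h Abcc8, a subunit of the ATP-sensitive potassium channel, rose from 206 ± 22.9 to 465 ± 133 (log2 1.17, edgeR adjusted p = 0.000506). The Notch ligand gene Dll1 rose (log2 0.44, edgeR adjusted p = 0.000783), and Adm, which encodes adrenomedullin, fell from 173 ± 9.78 to 48.4 ± 34.8 (log2 -1.84, edgeR adjusted p = 0.0011). With 1 library left out Adm ran from -2.60 to -1.52 and stayed called in 6 of 6 fits.

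In DMSO between 16 h and 24 h, 12 members of the wider list (16.7%) were higher and 2 (2.78%) lower of 72 tested, against 4.52% and 6.59% of all genes, with a median of 0.28 against 0.00. Without DMSO 16 h replicate 3 only 4 were higher, and without any 1 of the 24 h libraries 5 were. Beside Tph1, Gcg and Chgb, the leading members were the presynaptic scaffold gene Rimbp2 (log2 0.59, edgeR adjusted p = 0.00453), Pcsk1 (log2 1.07, edgeR adjusted p = 0.00656) and the Notch target Hes1 (log2 -0.29, edgeR adjusted p = 0.0164). Hes1 lost its call without DMSO 16 h replicate 3 (0.0812) or DMSO 24 h replicate 1 (0.0721).

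In the genotype experiment no comparison called any of the 10 genes by edgeR, and for 9 of the 10 genes replicates of one group differed more than in the inhibitor experiment by the median over the 4 groups of the ratio of the highest to the lowest library. For Gcg this median was 7.57 against 1.32, and for Chga 2.00 against 1.32, while for Neurod1 it was lower, at 1.22 against 1.34. Single groups went the other way, as for Tph1, whose ratio was 1.02 in the libraries labelled Cdk19-/- and 1.38 with Senexin B at 24 h. The highest Gcg count was 12.2 times the lowest among WT libraries and 16.0 times among libraries labelled Cdk19-/-, whereas within the inhibitor groups this ratio was between 1.23 and 1.40 for Gcg and at most 2.02 for any of the 10 genes. WT replicate 3 was the lowest WT library for Chga, Chgb, Gcg, Cck, Gip, Sct, Tac1 and Tph1. Double knockout replicate 1 was the lowest of its group for Neurog3, Neurod1, Chga, Chgb, Gcg, Cck, Tac1 and Tph1.

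**Figure D3:**
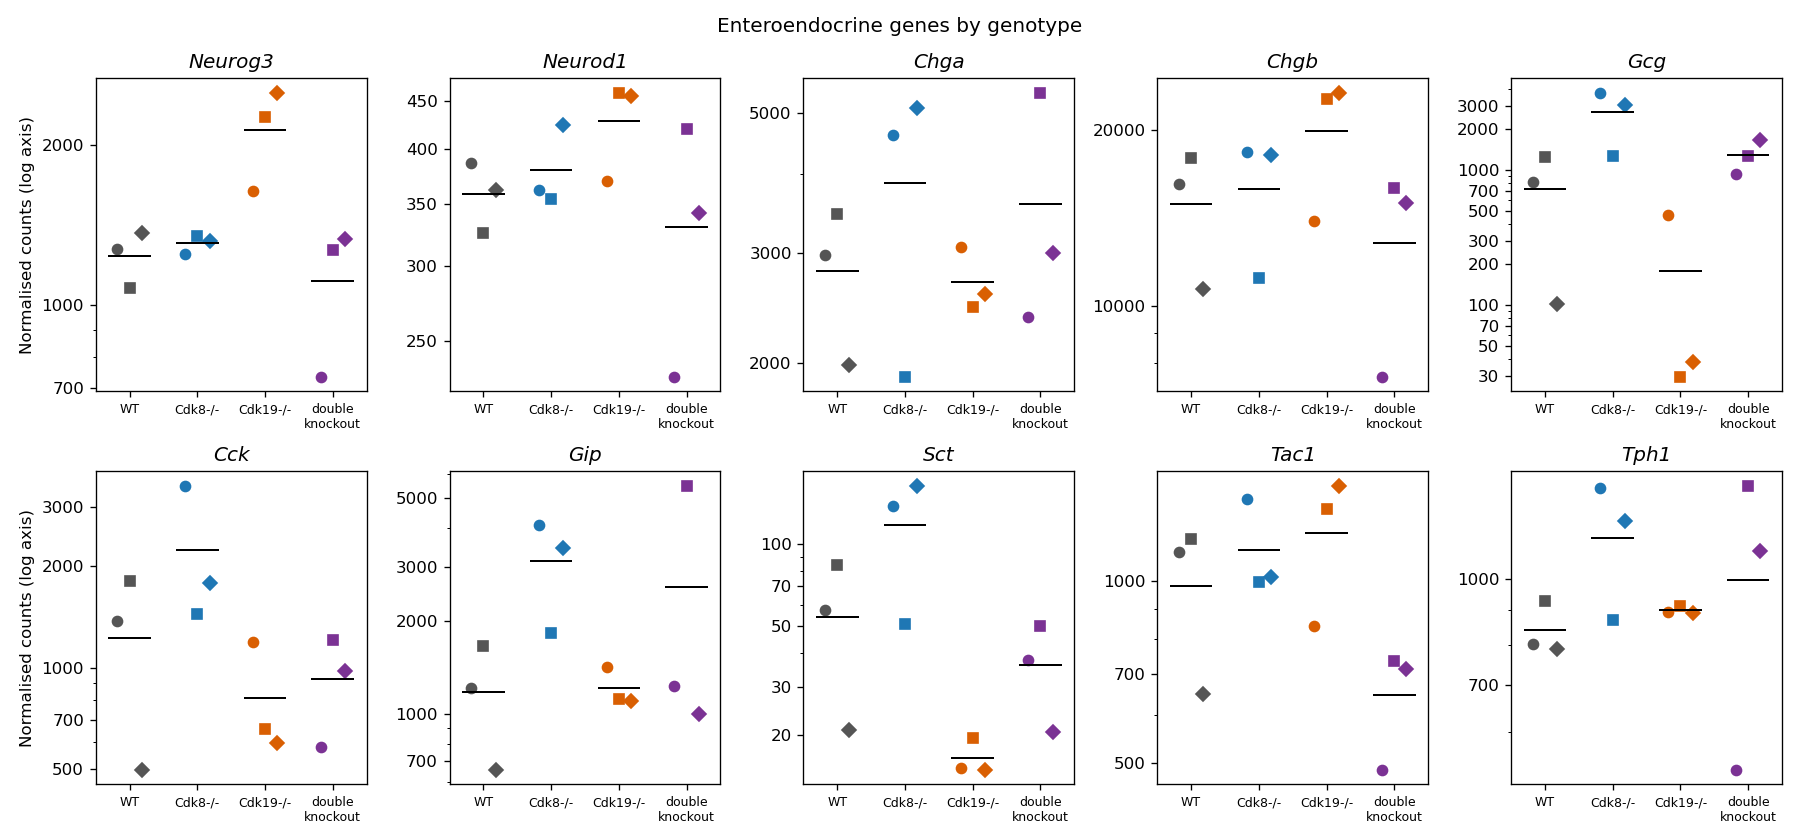
Normalised counts (log axis) of the 10 genes in the 12 genotype libraries, 1 panel per gene. Points are replicates 1 to 3 (circle, square and diamond) and lines are group means. Gcg runs from 102 to 1248 within WT, and 2 libraries labelled Cdk19-/- lie at 29.2 and 37.5.

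Neurog3 counted 1276, 1077 and 1366 in WT, 1250.0, 1352 and 1324 in Cdk8-/-, 1644, 2264 and 2514 in the libraries labelled Cdk19-/- and 732, 1270.3 and 1334 in those labelled double knockout. All 3 libraries labelled Cdk19-/- lay above all libraries of the other genotypes. Neurod1 counted 387, 326 and 362 in WT, 362, 354 and 424 in Cdk8-/-, 369.8, 459.9 and 456 in Cdk19-/- and 228, 420.5 and 342 in double knockout libraries, and each pair of groups compared overlapped.

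Chga counted 2978, 3455 and 1991 in WT, 4606, 1902 and 5092 in Cdk8-/-, 3061, 2460.0 and 2573 in Cdk19-/- and 2372, 5381 and 2998 in double knockout libraries. Chgb counted 16169.6, 17935 and 10708 in WT, 18345, 11157 and 18142 in Cdk8-/-, 13959.8, 22617 and 23198 in Cdk19-/- and 7555, 15896 and 15032 in double knockout libraries. The ranges of both granins overlapped between WT and every mutant group.

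Gcg counted 809, 1248 and 102 in WT, 3744, 1272 and 3009.6 in Cdk8-/-, 467, 29.2 and 37.5 in Cdk19-/- and 929, 1275 and 1659 in double knockout libraries. Gip counted 1214, 1665 and 656 in WT, 4109, 1833 and 3444 in Cdk8-/-, 1417, 1114 and 1104 in Cdk19-/- and 1226, 5504 and 999 in double knockout libraries. Every Cdk8-/- library lay above every WT library for Gcg and Gip, in Gcg by a narrow margin.

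Cck counted 1376, 1812 and 495 in WT, 3480.2, 1447 and 1781 in Cdk8-/-, 1189.8, 654 and 598 in Cdk19-/- and 578, 1207 and 979 in double knockout libraries. Sct counted 57.3, 84.2 and 20.9 in WT, 138, 51.0 and 164 in Cdk8-/-, 15.1, 19.4 and 14.8 in Cdk19-/- and 37.7, 50.2 and 20.4 in double knockout libraries. For both genes the double knockout libraries lay below all Cdk8-/- libraries and overlapped with WT, and for Sct the libraries labelled Cdk19-/- were the lowest of all.

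Tac1 counted 1117, 1175 and 648 in WT, 1368, 998 and 1017 in Cdk8-/-, 842, 1318 and 1439 in Cdk19-/- and 486, 738 and 715 in double knockout libraries. Tph1 counted 804, 927 and 791 in WT, 1354, 872 and 1214 in Cdk8-/-, 895, 911 and 892 in Cdk19-/- and 527, 1364 and 1096 in double knockout libraries. Tac1 was lower in every double knockout library than in any Cdk8-/- library, and Tph1 overlapped between all groups compared.

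In Cdk8-/- against WT, 0 of the 10 genes passed edgeR's test over 15602 genes, when 5.15% of all genes did. At an unadjusted p under 0.05 there were 2, against 3341 of the 15602 genes. DESeq2 called 0, against 7.84% of all genes. The median log2 fold change of the 10 was 0.45, against 0.01 for all genes. Chga differed by 0.46 (SE 0.355, edgeR adjusted p = 0.494) and Neurog3 by 0.08 (SE 0.204, edgeR adjusted p = 0.869). The largest differences were in Gcg (1.89, SE 0.877, edgeR adjusted p = 0.236), Gip (1.41, SE 0.564, edgeR adjusted p = 0.173) and Sct (1.12, SE 0.486, edgeR adjusted p = 0.208). With 1 library left out Gcg ran from 1.38 (without WT replicate 3) to 2.54 (without WT replicate 2), Gip from 1.12 to 1.74 and Sct from 0.73 to 1.58 (without the same libraries). Chga ran from 0.20 (without Cdk8-/- replicate 3) to 0.79 (without Cdk8-/- replicate 2). None of these 4 genes passed in any of the 6 edgeR fits.

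In Cdk19-/- against WT, edgeR called 0 of the 10 genes and 0% of all genes. At an unadjusted p under 0.05 there were 2 of the 10, against 1691 of 15602 genes. DESeq2 called 1, Neurog3 (DESeq2 adjusted p = 0.0160), against 2.01% of all genes. Neurog3 differed by 0.79 on the log2 scale (SE 0.204, edgeR adjusted p = 0.174), Chga by -0.06 (SE 0.355, edgeR adjusted p = 0.979), Gcg by -2.02 (SE 0.934, edgeR adjusted p = 0.464) and Sct by -1.71 (SE 0.553, edgeR adjusted p = 0.248). With 1 library left out Gcg ran from -4.42 to -1.36 (without WT replicate 2) and Sct from -2.08 to -1.23. Without the library labelled Cdk19-/- replicate 1, which held the WT level of Cdk19, edgeR called 2 of the 10 genes, against 3.27% of all genes. These were Neurog3, higher by 0.96 (SE 0.196, edgeR adjusted p = 0.0244), and Gcg, lower at -4.42 (SE 0.976, edgeR adjusted p = 0.0338). DESeq2 without that library, an alternative added after seeing the data, called the same 2 genes, against 6.05% of all genes. The genotype libraries carry no strand information, and Fam241b, which overlaps Neurog3 on the other strand, differed by 0.45 (edgeR adjusted p = 0.155).

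In the double knockout against WT, edgeR called 0 of the 10 genes, when 17.3% of all genes passed, and the same number without the library labelled double knockout replicate 3. At an unadjusted p under 0.05 there was 1, against 5005 of 15602 genes. DESeq2 called 0, against 18.6% of all genes. Chga differed by 0.35 (SE 0.355, edgeR adjusted p = 0.532), Neurog3 by -0.16 (SE 0.204, edgeR adjusted p = 0.637), Gip by 1.13 (SE 0.561, edgeR adjusted p = 0.188) and Tac1 by -0.60 (SE 0.254, edgeR adjusted p = 0.124). Gip rested on double knockout replicate 2: without it the value was -0.0827 (edgeR adjusted p = 0.911). Without WT replicate 3 Tac1 was called as lower (edgeR adjusted p = 0.0485), when 11.3% of all genes were called. Tph1 was called as higher without double knockout replicate 1 (edgeR adjusted p = 0.0472), when 12.6% of all genes were, and stood at -0.0496 without double knockout replicate 2 (edgeR adjusted p = 0.922).

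The double knockout was also set against Cdk8-/-, since in both groups Cre removed Cdk8. Here edgeR called 0 of the 10 genes and 0.0256% of all genes. At an unadjusted p under 0.05 there were 3 of the 10, against 2417 of 15602 genes. DESeq2 called 1, Sct, as lower (DESeq2 adjusted p = 0.0394), against 2.99% of all genes, and 0 without the library labelled double knockout replicate 3 (Sct, DESeq2 adjusted p = 0.164), against 2.07%. Without Cdk8-/- replicate 3 edgeR called 839 genes (5.28%) in this comparison in place of 4, and again 0 of the 10. Cck differed by -1.28 (SE 0.462, edgeR adjusted p = 0.227), Sct by -1.70 (SE 0.502, edgeR adjusted p = 0.170) and Tac1 by -0.80 (SE 0.254, edgeR adjusted p = 0.191). These 3 genes did not overlap between the groups, but the share of all genes without overlap was not counted. Cck stood at -0.81 without Cdk8-/- replicate 1 and reached -1.52 without double knockout replicate 2, Sct ran from -2.06 to -1.38 and Tac1 from -0.91 to -0.62, and edgeR called none of the 3 in any of the 6 fits. Chga differed by -0.11 (SE 0.354, edgeR adjusted p = 0.922) and Neurog3 by -0.23 (SE 0.204, edgeR adjusted p = 0.621).

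Whether the double knockout departed from the sum of the single ones on the log2 scale was tested as an interaction. By edgeR 0 of the 10 genes passed, against 0.0256% of all genes. At an unadjusted p under 0.05 there were 2 of the 10, against 2269 of 15602 genes. DESeq2 called 1, Neurog3 (DESeq2 adjusted p = 0.0262), against 3.45% of all genes. The departure was -1.02 for Neurog3 (SE 0.288, edgeR adjusted p = 0.141), -0.05 for Chga (SE 0.501, edgeR adjusted p = 0.974) and -1.09 for Tac1 (SE 0.357, edgeR adjusted p = 0.197). Without the library labelled Cdk19-/- replicate 1, edgeR called Neurog3 at -1.19 (SE 0.266, edgeR adjusted p = 0.0389), when 2.93% of all genes passed, and DESeq2 called Neurog3 and Tac1, against 7.48%. Without the library labelled double knockout replicate 3 DESeq2 called Neurog3 (DESeq2 adjusted p = 0.0077), against 3.64%. Without Cdk8-/- replicate 3 edgeR called 392 genes (2.47%) in place of 4, and 0 of the 10. Without the library labelled double knockout replicate 3 none of the 10 passed by edgeR in either comparison of the double knockout with WT or Cdk8-/-, nor in the interaction, when 15.4%, 0.0441% and 0.265% of all genes passed.

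**Figure D4:**
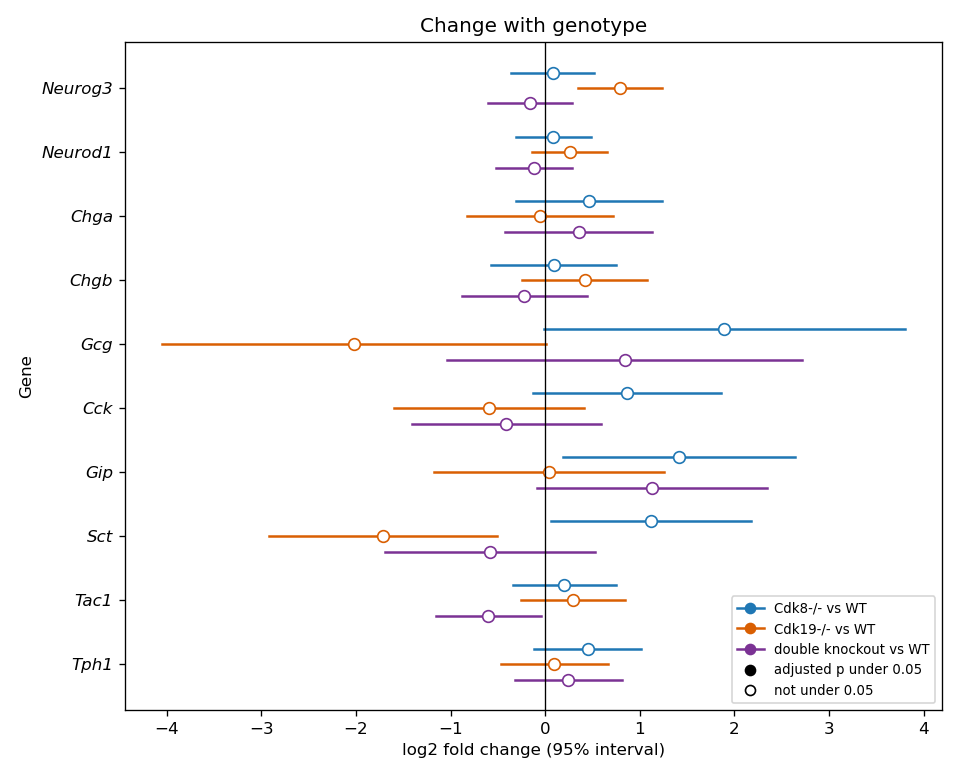
Log2 fold change of each of the 10 genes (horizontal axis) for Cdk8-/-, Cdk19-/- and double knockout libraries against WT. Bars are 95% intervals, and all points are open because no edgeR adjusted p is under 0.05. The intervals are widest for Gcg, whose values are 1.89 in Cdk8-/- and -2.02 in Cdk19-/-.

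Markers of other cell types differed between the genotypes. All 6 Paneth cell genes were higher in Cdk8-/- and in double knockout libraries than in WT, against 2.79% and 9.41% of all genes, and 4 to 6 with 1 library left out in either comparison (4 without the library labelled double knockout replicate 3). Their sum was 19242 to 25498 normalised counts in WT, 59119 to 78596 in Cdk8-/-, 20700 to 24999 in Cdk19-/- and 38022 to 77712 in double knockout libraries. Goblet cell genes were higher in 3 of 7 cases in Cdk8-/-, and in 1 (without WT replicate 1 or 2) or 2 with 1 library left out. In the double knockout 2 of 7 were higher, and 1 to 4 with 1 library left out: 4 without double knockout replicate 1, 1 without its replicate 2 or WT replicate 1 or 2, and 2 without the library labelled double knockout replicate 3. In the double knockout 2 of 5 tuft genes and 3 of 4 stem cell genes were lower, against 7.9% of all genes, and 3 of 6 enterocyte genes were higher. Without the library labelled double knockout replicate 3 these counts were 3 tuft, 3 stem cell and 4 enterocyte genes. The tuft count fell to 1 without WT replicate 1 or 2 or double knockout replicate 1 or 2, while with 1 library left out the stem cell count was 3 and the enterocyte count 3 or 4. None of these markers was called in Cdk19-/-, and without its replicate 1 edgeR called 2 of 7 goblet and 2 of 6 enterocyte genes as lower and 1 of 4 stem cell genes as higher, when 3.27% of all genes were called. The part of these cell types in the values of the 10 genes was not tested.

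In the wider list of 90 genes, of which 83 were tested, 5 (6.02%) were higher and 1 lower in Cdk8-/-, against 2.79% and 2.36% of all genes. In the double knockout 5 (6.02%) were higher and 6 (7.23%) lower, against 9.41% and 7.9%, a share below that of all genes. The medians were 0.33 and 0.14, against 0.01 and -0.01 for all genes. Without the library labelled double knockout replicate 3, 4 were higher and 5 lower, when 15.4% of all genes were called. In Cdk19-/- edgeR called 0, with a median of 0.11. At an unadjusted p under 0.05 there were 14, against 1691 of 15602 genes, and DESeq2 called 2, against 2.01% of all genes. Without replicate 1 of that group edgeR called 3 as higher and 2 as lower, against 3.27% of all genes, and DESeq2 called 9, against 6.05%. Leaving out 1 library gave 7 higher without Cdk8-/- replicate 2, 1 or 2 without any of the other 5 libraries, and 0 lower each time in Cdk8-/-. In the double knockout it gave 3 (without WT replicate 1) to 10 (without double knockout replicate 1) higher and 3 to 5 lower. The leading gene in Cdk8-/- was Nts, which encodes the ileal hormone neurotensin. It counted 26.1, 41.1 and 8.35 in WT and 267, 127 and 290.0 in Cdk8-/- (log2 3.17, edgeR adjusted p = 0.00267). No Cdk8-/- library came near the WT range. The others in order were Etv1 (log2 1.50, edgeR adjusted p = 0.0186), the receptor gene Olfr78 (1.89, 0.0247), Notch1 (-0.52, 0.0347), Ffar1 (1.52, 0.0442) and the goblet cell regulator Spdef (0.69, 0.0451). Nts passed in 6 of 6 fits without 1 library. Etv1 lost its call without WT replicate 1, WT replicate 3 or Cdk8-/- replicate 1 (adjusted p up to 0.0902), and Olfr78 without any WT library or Cdk8-/- replicate 3 (up to 0.107). Ffar1 passed only without Cdk8-/- replicate 2, and Notch1 and Spdef in none of the 6 fits, with adjusted p up to 0.134, 0.130 and 0.163.

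In the double knockout Ghrl, which encodes ghrelin, counted 33.7, 76.8 and 36.9 against 279.6, 373 and 173 in WT (log2 -2.48, edgeR adjusted p = 0.00304). Each double knockout library lay below each WT library. Olfr78 rose (log2 fold change 2.79, edgeR adjusted p = 0.00128), as did Ddc, which completes serotonin synthesis (0.51, 0.00903), and Etv1 (1.33, 0.013), while Notch1 fell (-0.71, 0.00331). These calls held in every fit without 1 library, including the one without the library labelled double knockout replicate 3 (Ghrl -2.31, edgeR adjusted p = 0.0118), except that Etv1 lost its call without WT replicate 1 (0.0573).

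How the 10 genes moved together is described by correlations of log2 CPM over the 12 libraries of each experiment, which share groups and treatments. Over the 45 pairs the median r was 0.43 in the genotype libraries and 0.61 in the inhibitor libraries, with 36 and 30 pairs above 0. Over 10 genotype libraries, without the 2 at the WT level of Cdk19, the median was 0.49. Among 14260 genes, those most like Chga in both experiments were Bace2 (r 0.91 and 0.93), Igfbp2 (0.89 and 0.87), Ptgr1 (0.87 and 0.90), Cpe (0.86 and 0.95) and Bok (0.84 and 0.85). Cpe trims the ends of cut prohormones and belongs to the wider list. Over the 10 genotype libraries the r of these 5 genes was 0.86 to 0.96. Of the other 9 genes, Gip ranked 6 among all genes in this order, Tph1 17, Cck 107, Gcg 269, Chgb 690, Neurod1 1450, Tac1 1944, Sct 6585 and Neurog3 9253. With the 10 genotype libraries in place of 12 the ranks were 7 for Gip, 38 for Tph1, 205 for Cck, 363 for Gcg, 817 for Chgb, 1561 for Neurod1, 2027 for Tac1, 6231 for Sct and 8639 for Neurog3.

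The genes most like Neurog3 were Sort1 (0.83 and 0.86), Rbmx (0.83 and 0.86), Pnliprp1 (0.83 and 0.92), S100pbp (0.83 and 0.92) and Myrf (0.83 and 0.82), and none of them belongs to the wider list. Over the 10 genotype libraries their r was 0.83 to 0.88. Neurog3 and Gcg ran in opposite directions in both experiments, with r of -0.70 over the genotype libraries and -0.55 over the inhibitor libraries. Neurog3 and Neurod1 had r of 0.84 over the genotype libraries and -0.25 over the inhibitor libraries. Over the 10 genotype libraries these r were -0.72 and 0.86.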

How the data were processed

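The authors sequenced 24 organoid libraries, and the deposited tables hold counts per Ensembl gene from STAR 2.6.0c, which the submitters' processing notes name together with FastQC and build GRCm38.p6. Of the 3 count columns, the fourth column of the tables (reverse strand) was used for all libraries. In the inhibitor libraries it held a median of 90.9 to 93.9% of stranded reads. In the genotype libraries it held 49.7 to 49.9%, so those carry no strand information and the column holds about 1 of every 2 reads of a gene. Unstranded counts were an alternative. Reads on no gene (63.1 to 65.2% and 21.5 to 25.1% of reads accounted for) stayed out of library sizes.

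Each experiment was fitted with edgeR 4.0.16 (R 4.3.3): TMM factors, filterByExpr by group, glmQLFit on 4 groups and glmQLFTest, with Benjamini-Hochberg adjustment over the 15602 or 15467 genes tested. Calls are adjusted p under 0.05. Overlap between groups is described for named genes only, and the share of all genes without overlap was not counted. A normalised count is the count divided by the effective library size and multiplied by the mean of its experiment. The precision of a low count is limited by counting error. DESeq2 1.42.0, other filters and factors, a replicate block, fits of only the groups compared and leaving out each library were alternatives. Leaving out a library in the lists, the correlations, DESeq2 and the unfiltered fits was added after seeing the data. The fits were also run on simulated counts as a check of the code, whose outcome is not given here and on which no result rests. Gene positions came from GENCODE vM21 and upstream sequences from RefSeq.

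Same-numbered libraries deviated together in the Senexin B comparisons (r 0.101 to 0.303 at 16 h, 0.137 to 0.377 at 24 h). They did not in the genotype comparisons (lowest r -0.193) or between DMSO times (lowest -0.0503). Any pairing under Senexin B rests on these correlations alone, and the main fit did not use it. The Senexin B values above come from group means without pairs, except where the replicate block is named as an alternative. No pair of replicates differed by as little as sampling noise.

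The 10 genes and the wider and marker lists were chosen with earlier results of these data known. All 10 genes are named in every library, with fold changes for each call and for Chga and Neurog3 in every comparison. Other values of the 10 genes are given where they help a reader, and were chosen after they were seen. Up to 6 called genes of the wider list are named per comparison in order of adjusted p, and 1 result under this rule is not reported here. Genes most like Chga and Neurog3 have the highest lower value of the 2 correlations.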

Additional observations from a re-analysis of the deposited data

How the results depend on the processing

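The count of the 10 genes called by edgeR changed with the processing in both experiments. With no filter on low counts, 2 were called in Cdk8-/- against WT (Gcg, Gip; 4.26% of all genes), 3 in Cdk19-/- against WT (Neurog3, Gcg, Sct; 1.61%), 2 in the double knockout against WT (Gip, Tac1; 9.71%), 3 in it against Cdk8-/- (Cck, Sct, Tac1; 1.2%) and 2 in the genotype interaction (Neurog3, Tac1; 1.9%). In a fit added after seeing the data, no filter and no Cdk19-/- replicate 1 gave 4 in Cdk19-/- (Neurog3, Gcg, Cck, Sct; 3.57%) and 4 in the interaction (Neurog3, Chgb, Gcg, Tac1; 3.91%). No filter and no double knockout replicate 3 gave 2 against WT (Gip, Tac1; 10.6%), 4 against Cdk8-/- (Gcg, Cck, Sct, Tac1; 2.45%) and 3 in the interaction (Neurog3, Chgb, Tac1; 3.76%). DESeq2 called 1 in Cdk19-/- (2.01% of all genes), 1 in the double knockout against Cdk8-/- (2.99%) and 1 in the interaction (3.45%). Without Cdk19-/- replicate 1, chosen after seeing the data, it called 2 in Cdk19-/- (6.05%) and 2 in the interaction (7.48%), and without double knockout replicate 3 it called 0 against WT (18.5%), 0 against Cdk8-/- (2.07%) and 1 in the interaction (3.64%). Fitting only the groups compared left 2 at 16 h of Senexin B (Gcg, Tph1; 4.86% of all genes), 6 at 24 h (without Tac1; 30.7%) and 2 between DMSO times (without Gcg; 2.57%). That fit could not be made for the interactions. Leaving out 1 library gave 0 to 2 calls in Cdk19-/-, 0 to 1 in the double knockout against WT, 0 to 1 in the interaction, 2 to 6 at 16 h, 6 to 7 at 24 h and 1 to 4 between DMSO times. At 16 h the lowest count came without DMSO replicate 3 or Senexin B replicate 2 or 3, and 3 remained without DMSO replicate 2. A left-out library leaves 2 in its group.

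With the replicate block, 5 of the 10 genes were called at 16 h, 7 at 24 h and 0 in each genotype comparison, and between DMSO times 5 (Neurog3 and Chga in addition), where the numbers do not pair the libraries. It changed no other call of the 10 genes.

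Of 90 values (10 genes in 9 comparisons), 32 took both signs over the fits with 1 library left out, and of the 15 called values 0 did. Among those of Neurog3 and Chga were Neurog3 in Cdk8-/- (-0.0199 to 0.146), the double knockout (-0.31 to 0.0826), that group against Cdk8-/- (-0.37 to 0.00847) and Senexin B at 24 h against 16 h (-0.13 to 0.0131). The others were Chga in Cdk19-/- (-0.24 to 0.13), the double knockout (-0.0646 to 0.59), that group against Cdk8-/- (-0.53 to 0.15), the genotype interaction (-0.47 to 0.20) and Senexin B at 24 h against 16 h (-0.0183 to 0.28). By DESeq2 without double knockout replicate 3, Chga was 0.0204 against Cdk8-/- and 0.0662 in the interaction, and 0.0398 in the interaction without Cdk19-/- replicate 1. By edgeR with no filter the same 3 values were 0.0147, 0.0633 and 0.0464.

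Over all genes, edgeR called 804 in Cdk8-/- (1294 by DESeq2, 1269 without filter), 0 in Cdk19-/- (309, 479, 15 with only the groups compared), 4 in the double knockout against Cdk8-/- (407, 358) and 4 in the interaction (490, 566, 8 with the block, 9 unstranded). With 1 library left out these counts ran from 196 to 699 in Cdk8-/-, 0 to 521 in Cdk19-/-, 3 to 839 against Cdk8-/- and 0 to 467 in the interaction, where the highest came without Cdk19-/- replicate 1 and 392 without Cdk8-/- replicate 3. The count against Cdk8-/- was 1 with the stricter filter or the block and 0 with only the groups compared. It called 1198 at 16 h (2293 with the block, 725 with only the groups compared), 0 between the Senexin B effects (66, 121, 60 with the block) and 1719 between DMSO times (3281, 385). With 1 library left out, the double knockout against WT (2700 genes with all libraries) had 1348 to 2452 called, with the lowest counts without WT replicate 1 (1348), 2 (1454) or 3 (1795). Senexin B at 16 h had 657 to 1819, with 657, 676 and 752 without Senexin B replicates 2, 3 and 1 and 1819 without DMSO replicate 1. At 24 h (4252 with all libraries) it had 2656, without Senexin B replicate 2, to 3805. Between DMSO times there were 434 to 2296, with 434 without DMSO 16 h replicate 3 and 522, 1095 and 946 without DMSO 24 h replicates 1, 2 and 3. In Cdk8-/- the lowest counts were 196, 257 and 332 without WT replicates 1, 2 and 3, and 464 and 417 without its own replicates 1 and 3. The causes were not tested. Sct and, in DMSO, Gcg and Neurod1 had the fewest counts, which limits their precision.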

Other observations

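Some hormone genes of the wider list that the rules above did not name, chosen after their values were seen, are given here as values. Sst, which encodes the inhibitory peptide somatostatin, counted 16.3, 7.81 and 7.97 in DMSO and 32.9, 22.3 and 28.6 with Senexin B at 16 h, and 19.4, 8.77 and 20.0 against 29.8, 28.4 and 38.6 at 24 h. Its groups did not overlap at either time, with log2 fold changes of 1.38 (edgeR adjusted p = 0.0255) and 1.00 (edgeR adjusted p = 0.0299). Sst lost its call at 16 h without DMSO replicate 2 or 3 or Senexin B replicate 1 or 3 (adjusted p up to 0.0996), and at 24 h without DMSO replicate 2 or Senexin B replicate 2 or 3 (up to 0.114). Pax4, a transcription factor of enteroendocrine progenitors downstream of Neurog3, was higher with Senexin B at 16 h (log2 0.43, edgeR adjusted p = 0.0218) and at 24 h (log2 0.56, edgeR adjusted p = 0.00133), while Neurog3 was lower. The call of Pax4 at 16 h was lost without DMSO replicate 3 or Senexin B replicate 1 or 2 (up to 0.0942). Ghrl was lower at 24 h (log2 -0.76, edgeR adjusted p = 0.0357), at 57.5, 27.4 and 40.6 normalised counts against 72.7, 69.2 and 70.5 in DMSO, and passed only without Senexin B replicate 1 when 1 library was left out (adjusted p up to 0.155).

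In the genotype libraries, Pyy, which encodes peptide YY of L cells, counted 12.1, 0 and 0 in the libraries labelled Cdk19-/-, in replicate order, and 13.1, 28.8 and 3.13 in WT. Pdx1, a transcription factor of proximal gut and pancreas, counted 562, 1020.2 and 26.2 in the libraries labelled double knockout, against 544 to 978 in WT, the low value being in the library that held the WT level of Cdk19. Sst in the same 3 libraries was 223, 2077 and 15.5.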
